A study of Mus musculus with 8 samples.

Results

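Mouse embryonic stem cells that had received a small interfering RNA (siRNA) against Psmd14 were set directly against cells that had received one against Sox2. The comparison used 4 of the 8 arrays of the series, the 2 titled siPsmd14 and the 2 titled siSox2. It covered 18193 genes, each read by the brightest of its probe sets with a single gene symbol. All cells were of the line NG4, were reverse transfected and were harvested 48 h later, so the groups differed by siRNA target. Levels are set against siSox2 and siNonTarget, and the arrays of a further siRNA, siDdb1, entered the model for the spread but are not described. The 2 arrays of a non-targeting siRNA, siNonTarget, served to tell which knockdown had moved. The labels give 1 cell line and name each siRNA only by its target. Whether the replicates were grown apart is not stated, so a p-value here speaks of the spread among arrays and that spread may be technical.

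Sox2 is a transcription factor that works with Pou5f1 (Oct4) to hold embryonic stem cells in the pluripotent state, and its loss is known to let such cells turn towards trophectoderm, the lineage of the placenta. Psmd14 is the deubiquitinase of the regulatory particle of the proteasome, the enzyme that cuts ubiquitin chains from substrates as they enter the proteolytic core. Impaired proteasomes are known in mammalian cells to stabilise short-lived proteins such as p53 and NRF2 and to call up new proteasome subunits and chaperones. Both genes were studied, per the series title, in the context of self-renewal.

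Log2 array medians lay between 4.78 and 4.85 in all 8 arrays, and the 2 arrays of a group correlated at 0.993 in siPsmd14 and 0.995 in siSox2 over probe sets. The median SE of a log2 difference was 0.151, which is 0.342 on either side at 95%, and the number of arrays limits the precision. Of 5 measured trophoblast markers, Cdx2 and Plac1 differed between the knockdowns, while Eomes, Elf5 and Tpbpa did not pass. The log2 of the markers' summed intensity was 7.77 and 7.77 in siPsmd14, against 10.57 and 10.93 in siSox2 and 7.17 and 7.07 in siNonTarget. In siSox2 that sum was mostly Plac1, which alone read 10.36 and 10.76 there, so it does not show a shift of all the markers. Eomes (0.43) and Elf5 (0.175) lay slightly higher in siPsmd14, and Tpbpa differed by -0.07. Of the 6 embryonic stem cell markers none passed, and their sum was 15.35 and 15.38 in siPsmd14 and 15.43 and 15.31 in siSox2. Of the fibroblast collagens, which feeder cells would carry, Col1a1 and Col3a1 read between 3.29 and 4.20 on the 4 arrays, below the array medians, and Col1a2 between 5.25 and 5.86, above them. Of the 8 fibroblast markers only Thy1 passed, and their summed level was 7.59 and 7.59 in siPsmd14 and 7.5 and 8.01 in siSox2. The blood marker Ptprc was higher in siPsmd14 (1.12, adjusted p = 0.0456) at levels of 4.62 and 4.22, against 2.98 and 3.62 in siSox2, below the array medians. The other blood markers, Cd68 at 7.37 to 7.85 (0.18, adjusted p = 0.778) and Lyz2 at 4.39 to 4.72 (0.05, adjusted p = 0.923), did not pass.

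The targeted transcripts did not separate the groups past the threshold. Psmd14 signal was 90.5% and 82.7% of the siNonTarget mean in siPsmd14, against 103.4% and 91.8% in siSox2, a log2 difference of -0.17 (95% interval -0.46 to 0.12, limma adjusted p = 0.606). Sox2 signal was 82.3% and 103.4% of that mean in siPsmd14, against 83.6% and 69.8% in siSox2 (0.27, interval -0.09 to 0.64, adjusted p = 0.483). Ddb1, which another siRNA of the series targets, did not pass (-0.05, adjusted p = 0.96). The Psmd14 arrays did not overlap between the groups, and the Sox2 arrays did. A lack of overlap was seen in 8714 of the 18193 genes (47.9%), so it does not set Psmd14 apart. Each target was read by 1 probe set, and no protein was measured, so the depth of either knockdown is not known from these files. Pou5f1 (0.22, adjusted p = 0.444) and Nanog (-0.05, adjusted p = 0.937), core pluripotency factors, did not pass either.

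The knockdowns nevertheless differed widely. In the limma test 1255 of 45037 probe sets (2.79%) had an adjusted p under 0.05. Of the 18193 genes 734 passed, which is 4.03% of them, with 361 higher in siPsmd14 (1.98%) and 373 lower (2.05%). These shares are the background for the counts of every gene list below. The lists were chosen with earlier results of these data known, so a share above the background is a description and no test. Some genes stand in more than 1 list and are counted in each. At least 2-fold differences were reached by 212 of the higher and 204 of the lower genes. In all 734 called genes the arrays did not overlap between the knockdowns, as in 47.9% of all genes. A lack of overlap, where given below, is thus a description and no further support for a call. The median difference was 1.09 among the higher genes and -1.07 among the lower, against 0.016 over all genes, and the smallest called difference was 0.539. In none of the called genes did another probe set pass in the opposite direction. However, of the 413 called genes with more than 1 probe set, only 156 had more than 1 that passed. Single arrays weighed on the totals, since the count of genes was 242 without siPsmd14 replicate 1, 843 without siPsmd14 replicate 2, 519 without siSox2 replicate 1 and 205 without siSox2 replicate 2. Of the 734 genes 227, 502, 378 and 198 still passed in those fits, and none changed sign while past the threshold. Without siSox2 replicate 1, 36.8% of the called genes were higher in siPsmd14, against 49.2% with all arrays.

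**Figure D1:**
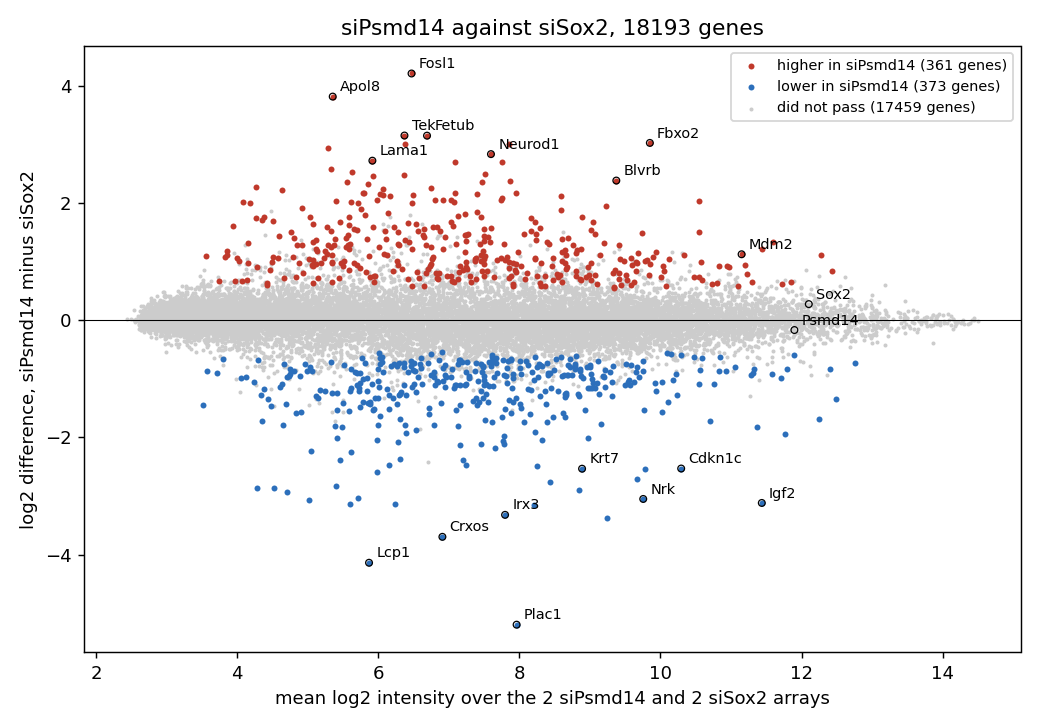
Log2 difference between siPsmd14 and siSox2 (vertical, siPsmd14 minus siSox2) against mean log2 intensity over the 4 arrays (horizontal) for 18193 genes, with the 361 genes higher in siPsmd14 in red and the 373 lower in blue. Differences past the threshold occur over the whole range of levels, with Fosl1 at the top and Plac1 at the bottom, while Sox2 and Psmd14 lie near 0.

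The siNonTarget means were used to describe which knockdown had moved. A gene was assigned to the knockdown that had moved when siNonTarget lay close to the other one, within 33.3% of the distance between the knockdown means. This assignment is a description with no test of its own, and both knockdowns share the siNonTarget arrays in it. Of the 361 higher genes, 184 (51%) had moved in siPsmd14, 77 (21.3%) had moved in siSox2, 58 lay on opposite sides of siNonTarget and 42 had moved to the same side by unequal amounts. Of the 373 lower genes, 240 (64.3%) had moved in siSox2 and only 23 (6.17%) in siPsmd14, with 71 on opposite sides and 39 on the same side. With 25% in place of 33.3% of the distance, 146 of the higher genes (40.4%) had moved in siPsmd14 and 192 of the lower (51.5%) in siSox2. The 240 genes that were lower through siSox2 had a median of 1.06 in siSox2 relative to siNonTarget and -0.06 in siPsmd14. The 184 genes that were higher through siPsmd14 had a median of 1.14 in siPsmd14 relative to siNonTarget and -0.08 in siSox2.

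**Figure D2:**
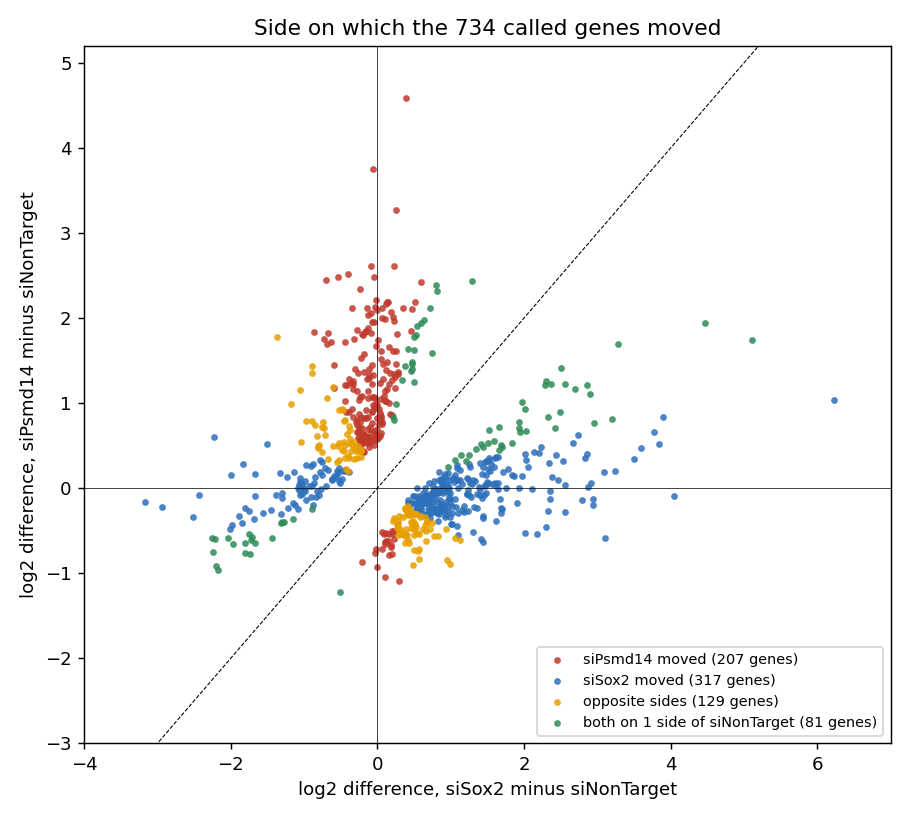
Log2 difference of each of the 734 called genes from siNonTarget in siPsmd14 (vertical) and in siSox2 (horizontal), coloured by the knockdown that had moved, with the diagonal marking equal values. The genes form a vertical arm of 207 that moved in siPsmd14 and a horizontal arm of 317 that moved in siSox2, with 129 on opposite sides and 81 on the same side of siNonTarget.

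Genes of the trophoblast lineage were lower in siPsmd14 than in siSox2. Plac1, a gene expressed mainly in trophoblast, read 5.37 and 5.36 in siPsmd14, against 10.36 and 10.76 in siSox2 and 4.58 and 4.08 in siNonTarget. The siSox2 arrays were far above both other groups, and Plac1 was 36.6-fold higher there than in siPsmd14 (-5.20, SE 0.21, adjusted p = 5.57e-05). Of 21 trophoblast transcription factors 7 were lower and none higher, with a median of -0.66, against 2.05% lower and a median of 0.016 over all genes. Ascl2, an imprinted regulator of trophoblast, read 6.62 and 6.65 in siPsmd14, against 9.41 and 10.17 in siSox2 and 6.15 and 6.44 in siNonTarget (-3.15, SE 0.26, adjusted p = 0.000876). Pparg, a nuclear receptor that the placenta needs, read 3.52 and 3.45 in siPsmd14, against 6.24 and 6.87 in siSox2 and 3.74 and 3.49 in siNonTarget (-3.07, SE 0.20, adjusted p = 0.000348). In both genes the siPsmd14 arrays lay beside siNonTarget and did not overlap with siSox2. Cdx2, which directs trophectoderm fate, differed by less, with 5.63 and 5.40 in siPsmd14, against 6.73 and 6.87 in siSox2 and 5.10 and 5.19 in siNonTarget (-1.28, adjusted p = 0.00227). Dlx3 (-1.82) and Gata2 (-2.05), both needed for placental development, were lower too. Tfap2c (-1.06) and Gata3 (-1.49), which specify trophectoderm, were the other called members and are named here after their values were seen. Without siPsmd14 replicate 1 the count was 6 of 21, and without siSox2 replicate 2 it was 6 with a median of -0.23. In RNA from whole cultures, fewer trophoblast cells and less of these transcripts in each cell cannot be told apart.

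Of 30 trophoblast and placental effector genes 13 were lower in siPsmd14 and 1 was higher, with a median of -0.86. The share called was 46.7%, against 4.03% of all genes, in a list chosen with earlier results of these data known. Its members Plac1, Lcp1, Ldoc1, Mbnl3 and Nrk were also among the 15 largest differences on the lower side. Medians relative to siNonTarget were 0.23 and 0.19 on the siPsmd14 arrays and 1.22 and 1.43 on the siSox2 arrays. Lcp1, the actin-bundling L-plastin, read 3.73 and 3.86 in siPsmd14, against 7.98 and 7.90 in siSox2 and 4.25 and 3.53 in siNonTarget (-4.14, SE 0.21, adjusted p = 8.36e-05). Ldoc1, a retrotransposon-derived gene with a role in mouse placental hormone production, read 4.48 and 4.86 in siPsmd14, against 7.71 and 7.90 in siSox2 (-3.14, SE 0.16, adjusted p = 8.36e-05). Both genes lay at the siNonTarget level in siPsmd14, with no overlap between the knockdowns. Mbnl3, a splicing regulator (-2.90), the kinase gene Nrk of the spongiotrophoblast (-3.05) and the gap junction gene Gjb5 (-2.02, adjusted p = 0.000479) followed. Plac1, Lcp1, Ldoc1, Mbnl3, Nrk and Gjb5 passed with any 1 of the 4 arrays left out. The placental homeobox genes Rhox6 (-2.71, adjusted p = 0.0132) and Rhox9 (-2.54, adjusted p = 0.0143) and the transcriptional coregulator gene Cited1 (-2.11, adjusted p = 0.00363), named after their values were seen, were lower as well. Rhox6 and Rhox9 are close paralogues, and whether their probe sets tell them apart was not tested. The count of lower members was 9 without siPsmd14 replicate 1 and 9 without siSox2 replicate 2. The single higher member was Ada, the adenosine deaminase gene, named after its value was seen (1.48, adjusted p = 0.0417), and it did not pass without siPsmd14 replicate 1 or either siSox2 array.

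Imprinted growth regulators split by gene, with 26.3% of them called, against 4.03% of all genes. Igf2, the paternally expressed fetal growth factor, read 9.94 and 9.82 in siPsmd14, against 12.67 and 13.32 in siSox2 and 9.40 and 9.04 in siNonTarget (-3.12, SE 0.26, adjusted p = 0.000862). Phlda2, which restrains placental growth, read 10.90 and 10.69 in siPsmd14, against 12.65 and 12.83 in siSox2 and 10.97 and 11.12 in siNonTarget (-1.94, adjusted p = 0.00267). Cdkn1c, an inhibitor of cyclin-dependent kinases, read 8.84 and 9.21 in siPsmd14, against 11.10 and 12.02 in siSox2 and 8.62 and 9.37 in siNonTarget (-2.53, adjusted p = 0.00523). These 3 genes, like Ascl2, were higher in siSox2 than in siPsmd14 and siNonTarget and did not overlap between the knockdowns. With Ascl2 they made 4 lower members of 19, while Impact was higher (0.65, adjusted p = 0.0493) and the list's median was 0.12. Impact did not pass without siPsmd14 replicate 1 (0.50, adjusted p = 0.223), siSox2 replicate 1 (adjusted p = 0.19) or siSox2 replicate 2 (adjusted p = 0.185). The other 4 passed in every such fit.

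Outside these lists the large differences on the lower side also lay mostly with siSox2. The homeobox gene Crxos read 5.00 and 5.12 in siPsmd14, against 8.33 and 9.18 in siSox2 and 5.62 and 5.68 in siNonTarget (-3.70, SE 0.25, adjusted p = 0.000348). The Iroquois gene Irx3 read 6.17 and 6.10 in siPsmd14, against 9.13 and 9.79 in siSox2 and 5.47 and 5.77 in siNonTarget (-3.32). Its relative Irx5 went the other way, with 5.36 and 5.38 in siPsmd14, against 4.20 and 4.57 in siSox2 and 4.26 and 4.53 in siNonTarget (0.98, adjusted p = 0.0155, and 0.0819 without siPsmd14 replicate 1 or 0.0676 without siSox2 replicate 1). Neither gene overlapped between the knockdowns. The choline dehydrogenase gene Chdh (-3.03) and the nuclear export family member Nxf7 (-2.86) were high in siSox2 and near siNonTarget in siPsmd14. Dkk1, a secreted Wnt inhibitor, read 4.11 and 3.97 in siPsmd14, against 6.11 and 8.23 in siSox2 (-3.13, adjusted p = 0.0174). The 2 siSox2 arrays of Dkk1 lay far apart, and the call was lost without siPsmd14 replicate 1 (-3.20, adjusted p = 0.0924) or replicate 2 (-3.06, 0.0543). It held without siSox2 replicate 1 (-4.19, adjusted p = 0.000243) or replicate 2 (-2.07, 0.00487), where the value moved and the spread between those arrays no longer entered the fit. Fam90a1b (-2.94, adjusted p = 0.00945) likewise lost it without siPsmd14 replicate 1 (0.0585). The transcript 3830417A13Rik lay above siNonTarget in both knockdowns, with 8.0 and 7.11 in siPsmd14, against 10.65 and 11.20 in siSox2 and 6.36 and 5.25 in siNonTarget (-3.37, adjusted p = 0.00318). Relative to siNonTarget it passed in siSox2 (5.12, adjusted p = 0.000395) and did not in siPsmd14 (1.75, adjusted p = 0.0663).

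**Figure D3:**
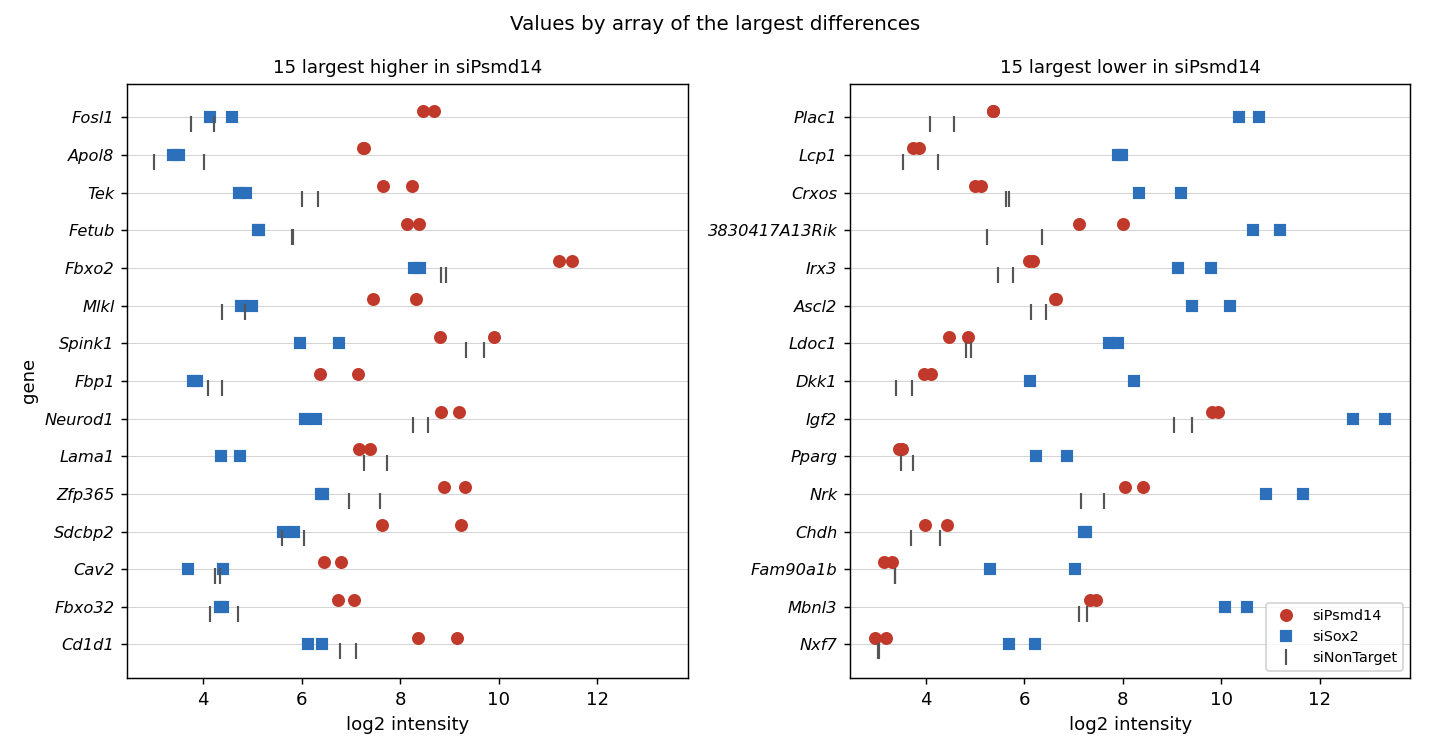
Log2 intensity on each siPsmd14, siSox2 and siNonTarget array (horizontal) of the 15 genes with the largest differences in each direction, higher in siPsmd14 on the left and lower on the right. On the right the siPsmd14 points sit closer than the siSox2 points to the siNonTarget marks, least so in 3830417A13Rik, while on the left Spink1, Neurod1 and Lama1 have siPsmd14 close to siNonTarget and most others do not.

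Several genes of epithelium and basement membrane had moved the same way in both knockdowns, but further in siSox2. Krt7, a keratin of simple epithelia, read 7.84 and 7.40 in siPsmd14, against 9.94 and 10.38 in siSox2 and 5.95 and 5.42 in siNonTarget (-2.54, SE 0.30, adjusted p = 0.00387). The siPsmd14 arrays lay between the other groups with no overlap, and Krt7 passed relative to siNonTarget in siPsmd14 (1.94, adjusted p = 0.0218) and in siSox2 (4.47, adjusted p = 0.000332). It was the 1 of 6 keratins that passed (16.7%, against 4.03% of all genes). Without siSox2 replicate 1, 4 of the 6 did. The type IV collagen genes Col4a1 (-1.54, adjusted p = 0.00544) and Col4a2 (-1.59, adjusted p = 0.00912) and the desmosomal cadherin gene Dsc2 (-1.79, adjusted p = 0.00515) followed the same order. Col4a2 lost its call without siPsmd14 replicate 1 (adjusted p = 0.0659). The stress transcription factor gene Cebpb read 9.18 and 9.02 in siPsmd14, against 9.97 and 10.34 in siSox2 and 7.77 and 7.93 in siNonTarget (-1.05, adjusted p = 0.00963, and 0.0739 without siSox2 replicate 2).

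Basement membrane genes did not move as a block. Of 32 extracellular matrix genes 4 were higher and 3 lower in siPsmd14, and of 34 integrins, cadherins and claudins again 4 were higher and 3 lower. These are shares of 21.9% and 20.6%, against 4.03% of all genes. The laminin chain gene Lama1 read 7.38 and 7.17 in siPsmd14, against 4.75 and 4.37 in siSox2 and 7.27 and 7.73 in siNonTarget (2.72, SE 0.19, adjusted p = 0.000393). The siSox2 arrays were below those of siPsmd14 and siNonTarget. Its paralogue Lama3 read 7.22 and 6.88 in siPsmd14, against 5.01 and 5.43 in siSox2 and 4.62 and 4.65 in siNonTarget (1.83, adjusted p = 0.00153), and here the siPsmd14 arrays were above those of siSox2 and siNonTarget. Vcan, a proteoglycan of loose matrix (1.30, adjusted p = 0.00414), was also higher in siPsmd14 than in siSox2 and siNonTarget, and both passed without any 1 of the 4 arrays. Dsp, the desmosomal plaque gene desmoplakin, was above siNonTarget in both knockdowns and higher in siPsmd14 (1.14, adjusted p = 0.0156). That call did not hold without siPsmd14 replicate 1 (0.0566), siPsmd14 replicate 2 (0.0524) or siSox2 replicate 1 (0.0568). The tight junction gene Cldn3 (-1.14, adjusted p = 0.00907) and the endothelial cadherin gene Cdh5 (-1.18, adjusted p = 0.0161) were lower. Without siSox2 replicate 2 Cldn3 had an adjusted p of 0.0722 and Cdh5 of 0.112, and without siPsmd14 replicate 1 of 0.0513 and 0.0695. Cdh5 also missed the threshold without siPsmd14 replicate 2 (0.0524).

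Genes of primitive endoderm, the lineage of the yolk sac, gave 2 higher and 4 lower calls of 24 (25%, against 4.03% of all genes). Dab2, an endocytic adaptor of that lineage and of trophoblast, read 6.07 and 6.13 in siPsmd14, against 7.77 and 8.68 in siSox2 and 5.36 and 5.77 in siNonTarget (-2.13, adjusted p = 0.00464). Foxa2, an endoderm transcription factor, read 4.99 and 5.32 in siPsmd14, against 7.0 and 6.39 in siSox2 (-1.54, adjusted p = 0.00963, and 0.0729 without siPsmd14 replicate 1). Neither overlapped between the knockdowns. The defining factors Gata4, Gata6, Sox17 and Sox7 did not pass, and their summed level was 6.3 and 6.42 in siPsmd14 and 6.48 and 7.15 in siSox2. Of 24 genes of that list 7 were lower without siSox2 replicate 1 and 2 without siPsmd14 replicate 1.

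A set of genes, among them pluripotency and neural genes, was higher in siPsmd14, with siSox2 below siNonTarget. Neurod1, a proneural transcription factor, read 8.83 and 9.19 in siPsmd14, against 6.29 and 6.08 in siSox2 and 8.25 and 8.56 in siNonTarget (2.83, SE 0.17, adjusted p = 0.000281). Spink1, a trypsin inhibitor outside the pluripotency and neural lists, read 9.91 and 8.80 in siPsmd14, against 6.75 and 5.97 in siSox2 and 9.34 and 9.70 in siNonTarget (3.0, SE 0.35, adjusted p = 0.00379). Both genes were lower in siSox2 than in siPsmd14 and siNonTarget, without overlap. Cdh2, the neural cadherin, lay on opposite sides of siNonTarget, with 8.31 and 8.04 in siPsmd14, against 6.0 and 6.01 in siSox2 and 6.94 and 7.42 in siNonTarget (2.17, adjusted p = 0.00132). Of 26 neural genes 5 were higher and none lower (19.2% called, against 4.03% of all genes), with a median of 0.24. The other calls were Gbx2, the neuronal tubulin gene Tubb3 (0.68, adjusted p = 0.0269) and the radial glia gene Fabp7 (0.67, adjusted p = 0.0357). Tubb3 and Fabp7 passed in none of the 4 fits with 1 array left out (adjusted p between 0.0588 and 0.195). The list's count was 2 without siSox2 replicate 2 and 3 without either siPsmd14 array. Etv4, a target of FGF signalling (1.33, adjusted p = 0.00177), and Egr1, an immediate early gene, were low in siSox2 as well. Egr1 read 10.25 and 9.06 in siPsmd14, against 7.53 and 7.54 in siSox2 and 9.27 and 9.48 in siNonTarget (2.12, adjusted p = 0.0114, and 0.0766 without siSox2 replicate 2).

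Of 22 genes of naive pluripotency 4 were higher and 1 lower in siPsmd14 (22.7%, against 4.03% of all genes), with a median of 0.12. The junction gene Jam2 read 9.17 and 8.95 in siPsmd14, against 7.91 and 7.56 in siSox2 and 9.31 and 9.53 in siNonTarget (1.33, SE 0.16, adjusted p = 0.00417). Nr0b1 (Dax1), a repressor bound to the pluripotency network, read 10.22 and 10.43 in siPsmd14, against 9.52 and 9.09 in siSox2 and 10.85 and 11.10 in siNonTarget (1.02, adjusted p = 0.0181). Both were lowest in siSox2, with no overlap, and in Nr0b1 the siPsmd14 arrays also lay under siNonTarget. The lysosomal enzyme gene Manba (1.31, adjusted p = 0.00734) and the homeobox gene Gbx2 (1.16, adjusted p = 0.0167) kept the same order as Nr0b1. Tfcp2l1, a transcription factor of the naive state, went the other way, with 9.52 and 9.81 in siPsmd14, against 10.49 and 10.90 in siSox2 and 10.29 and 10.35 in siNonTarget (-1.02, adjusted p = 0.0161). Jam2 passed with any 1 array left out. Without siSox2 replicate 2 it was the 1 member that passed, and the adjusted p was 0.0669 for Manba, 0.124 for Gbx2, 0.126 for Nr0b1 and 0.112 for Tfcp2l1. Nr0b1 also missed the threshold without either siPsmd14 array (0.0647 and 0.0595), and Tfcp2l1 without siPsmd14 replicate 1 (0.101). None of 19 general pluripotency genes and none of 18 Sox genes other than Sox2 passed. Sox21 (0.63, adjusted p = 0.0565) and Sox13 (0.71, adjusted p = 0.0779) had the smallest p among the Sox genes, and Sox13 passed without siSox2 replicate 1 (0.95, adjusted p = 0.0462). The smallest p among general pluripotency genes was that of the Nodal inhibitor gene Lefty2, at 7.86 and 8.68 in siPsmd14, against 9.71 and 9.08 in siSox2 (-1.13, adjusted p = 0.0708, and 0.0222 without siPsmd14 replicate 2).

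Cyclin genes of the G1 phase differed with siSox2 low. Ccnd2 read 6.64 and 7.20 in siPsmd14, against 5.40 and 5.87 in siSox2 and 7.76 and 7.92 in siNonTarget (1.29, adjusted p = 0.0207). Ccnd1 read 10.32 and 10.67 in siPsmd14, against 9.70 and 9.46 in siSox2 and 10.82 and 10.95 in siNonTarget (0.92, adjusted p = 0.0179). Both cyclin D genes were lowest in siSox2, and siPsmd14 lay between the other groups. Ccnd3 had the opposite order, with 9.87 and 10.41 in siPsmd14, against 10.88 and 11.11 in siSox2 (-0.86, adjusted p = 0.0473). The inhibitor gene Cdkn2b was above siNonTarget in both knockdowns and higher in siPsmd14 (0.85, adjusted p = 0.0289). Of the 21 genes of this list 3 were higher and 2 lower (23.8%, against 4.03% of all genes). Of these calls only that of Cdkn1c held in every fit with 1 array left out. Without siSox2 replicate 2 the adjusted p was 0.143 for Ccnd1, 0.274 for Ccnd3 and 0.0882 for Cdkn2b. Ccnd2 did not pass without siSox2 replicate 1 (0.0929) or siPsmd14 replicate 2 (0.0595).

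The largest difference on the higher side belonged to the AP-1 transcription factor gene Fosl1. It read 8.69 and 8.46 in siPsmd14, against 4.15 and 4.59 in siSox2 and 3.76 and 4.21 in siNonTarget. The siPsmd14 arrays stood far above both other groups, 18.4-fold higher than siSox2 (4.20, SE 0.23, adjusted p = 0.000125), and both probe sets of the gene passed. Of 24 AP-1 and immediate early genes 3 were higher and 1 lower in siPsmd14 (16.7%, against 4.03% of all genes), with a median of 0.16. Ier3, an early response gene that limits cell death, read 9.12 and 9.03 in siPsmd14, against 7.26 and 7.76 in siSox2 and 7.57 and 7.36 in siNonTarget (1.56, adjusted p = 0.00314). Batf3, a partner of Jun proteins, was lower, with 5.6 and 5.27 in siPsmd14, against 7.34 and 7.39 in siSox2 and 5.49 and 5.38 in siNonTarget (-1.93, adjusted p = 0.00109). Neither overlapped, and each was set apart by a different knockdown. Fosl1, Ier3 and Batf3 passed with any 1 array left out.

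Other genes with large differences had likewise moved in siPsmd14. Apol8, an apolipoprotein L family gene, read 7.27 and 7.24 in siPsmd14, against 3.39 and 3.51 in siSox2 and 3.0 and 4.01 in siNonTarget (3.81, SE 0.61, adjusted p = 0.0153). Its call was lost without siPsmd14 replicate 1 (0.0894), siSox2 replicate 1 (0.0585) or siSox2 replicate 2 (0.0896), though the difference stayed between 3.75 and 3.87. The receptor kinase gene Tek, known from endothelium, lay on opposite sides of siNonTarget, with 8.24 and 7.64 in siPsmd14, against 4.87 and 4.73 in siSox2 and 6.0 and 6.33 in siNonTarget (3.15, SE 0.32, adjusted p = 0.00227). Fetub, which encodes a protease inhibitor of the fetuin family, read 8.39 and 8.14 in siPsmd14, against 5.11 and 5.12 in siSox2 and 5.8 and 5.83 in siNonTarget (3.14, SE 0.14, adjusted p = 6.01e-05). None of these genes overlapped between the knockdowns, which held for every called gene. The gluconeogenic enzyme gene Fbp1 (2.93), the syntenin family gene Sdcbp2 (2.69), the caveolin gene Cav2 (2.58), Zfp365 (2.70) and Cd1d1, which presents lipids to T cells (2.50), were high in siPsmd14 as well. Fbp1 did not pass without siPsmd14 replicate 1 (0.0589) or siSox2 replicate 2 (0.0524). Sdcbp2 read 9.23 on siPsmd14 replicate 1 and 7.63 on replicate 2, and it did not pass without siSox2 replicate 1 (0.0636) or replicate 2 (0.0827). The calcium-binding protein genes S100a4 (1.77, adjusted p = 0.00245) and S100a10 (1.2, adjusted p = 0.0311) were higher too. They were the 2 of 19 annexin and S100 genes that passed (10.5%, against 4.03% of all genes). S100a10 fell to 0.78 without siPsmd14 replicate 1 (adjusted p = 0.0636) and also lost its call without siSox2 replicate 1 (0.117) or replicate 2 (0.144).

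The necroptosis genes Mlkl and Ripk3 were higher in siPsmd14. Mlkl, which breaches the plasma membrane in necroptosis, read 8.31 and 7.46 in siPsmd14, against 4.77 and 4.99 in siSox2 and 4.85 and 4.38 in siNonTarget (3.01, SE 0.30, adjusted p = 0.00188). Ripk3, the kinase that activates Mlkl, read 7.88 and 7.85 in siPsmd14, against 6.78 and 6.95 in siSox2 and 7.0 and 7.19 in siNonTarget (1.0, SE 0.15, adjusted p = 0.0103). Both genes were higher in siPsmd14 than in siSox2 and siNonTarget, with no overlap. The caspase gene Casp6 was lower (-0.78, adjusted p = 0.0246), with siSox2 above siNonTarget. Of 32 genes of necroptosis, caspases and the BCL2 family 2 were higher and 1 lower (9.38%, against 4.03% of all genes). The list's median was -0.04. Mlkl passed with any 1 array left out. Ripk3 just missed the threshold without siPsmd14 replicate 1 (0.0659), siSox2 replicate 1 (0.0532) or siSox2 replicate 2 (0.0509). Casp6 missed it in all 4 such fits (0.0669 to 0.113).

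F-box proteins pick substrates for cullin ubiquitin ligases, and 3 of 40 F-box genes were higher and 2 lower in siPsmd14. The share called was 12.5%, against 4.03% of all genes. Fbxo2, which recognises glycoproteins bound for degradation, read 11.49 and 11.23 in siPsmd14, against 8.40 and 8.28 in siSox2 and 8.93 and 8.82 in siNonTarget (3.02, SE 0.14, 8.12-fold, adjusted p = 6.01e-05). Fbxo32 (atrogin), known for muscle wasting, read 6.74 and 7.06 in siPsmd14, against 4.41 and 4.33 in siSox2 and 4.14 and 4.70 in siNonTarget (2.53, SE 0.20, adjusted p = 0.000671). Both were higher in siPsmd14 than in siNonTarget too, did not overlap with siSox2 and passed with any 1 array left out. Fbxo34 was higher by less (0.84, adjusted p = 0.0177, and between 0.0742 and 0.108 without siPsmd14 replicate 1 or either siSox2 array). Fbxl12 (-1.37, adjusted p = 0.00724) and Fbxo21 (-1.01, adjusted p = 0.0156) were high in siSox2 and near siNonTarget in siPsmd14. Their adjusted p without siSox2 replicate 2 was 0.0662 and 0.113, and Fbxo21 had 0.0939 without siPsmd14 replicate 1. The list's median was -0.11. None of 36 genes of cullins, their DCAF receptors and the COP9 signalosome passed, with Crbn (0.70, adjusted p = 0.109) and Cul5 (0.54, adjusted p = 0.149) having the smallest p. Of 29 ubiquitin genes and conjugating enzymes Ube2o alone was called, a share of 3.45% that lay near the 4.03% of all genes. It was higher (0.68, adjusted p = 0.0423), and the call held only with all 4 arrays or without siPsmd14 replicate 2.

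Proteasome subunit genes lay slightly above siSox2 in siPsmd14, and none of the core or regulatory subunits passed. Of 17 genes of the core particle 16 were above 0, with a median of 0.33, and of 20 genes of the regulatory particle other than Psmd14 itself 18 were above 0, with a median of 0.32. Over all genes 9580 of 18193 were above 0. The core median relative to the siSox2 mean was 0.59 on siPsmd14 replicate 1 and 0.15 on replicate 2, and that of the regulatory particle was 0.47 and 0.18. Psma5, an alpha subunit of the core, read 12.89 and 12.35 in siPsmd14, against 11.97 and 11.78 in siSox2 and 11.75 and 12.10 in siNonTarget (0.75, adjusted p = 0.102). Psma7, another alpha subunit, read 12.42 and 11.81 in siPsmd14, against 11.54 and 11.31 in siSox2 (0.69, adjusted p = 0.109). Replicate 1 was the higher siPsmd14 array in both. Without siPsmd14 replicate 2, 5 core genes passed, among them Psma5 (1.01, adjusted p = 0.0416) and Psma7 (0.99, adjusted p = 0.0208), and without replicate 1 the core median was 0.15. In the regulatory particle the scaffold Psmd1 read 12.35 and 12.17 in siPsmd14, against 11.75 and 11.68 in siSox2 (0.54, adjusted p = 0.0635). The lid subunit Psmd11 read 12.66 and 12.72 in siPsmd14, against 12.17 and 12.23 in siSox2 (0.50, adjusted p = 0.0748), and 2 of its 8 probe sets passed (0.65 and 0.82). Psme4, a proteasome activator, read 11.92 and 12.15 in siPsmd14, against 11.39 and 11.45 in siSox2 and 11.57 and 11.64 in siNonTarget (0.61, adjusted p = 0.0417). It was the 1 of 17 activator, assembly and transcription genes that passed (5.88%, against 4.03% of all genes). The call held in none of the fits with 1 array left out, where the difference lay between 0.50 and 0.73. The Actb 3' to 5' difference, a sign of RNA integrity, was 0.346 and 0.197 in siPsmd14 and 0.214 and 0.0962 in siSox2. An 18S ribosomal RNA probe set read 10.42 and 12.51 in siPsmd14 and 10.76 and 11.40 in siSox2. The part of these values in the difference between the siPsmd14 arrays was not tested.

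Targets of NRF2, the transcription factor that answers oxidative stress by binding antioxidant response elements, were among the genes higher in siPsmd14. Of 26 such genes 4 were higher and none lower (15.4%, against 4.03% of all genes), 18 lay above 0 and the median was 0.25. The malic enzyme gene Me1, which makes NADPH, read 10.03 and 9.53 in siPsmd14, against 8.05 and 8.42 in siSox2 and 7.99 and 7.96 in siNonTarget (1.54, SE 0.19, adjusted p = 0.00428). The biliverdin reductase gene Blvrb read 11.34 and 9.79 in siPsmd14, against 8.20 and 8.17 in siSox2 and 8.08 and 7.82 in siNonTarget (2.38, SE 0.39, adjusted p = 0.0162). The sulfiredoxin gene Srxn1 read 9.45 and 8.39 in siPsmd14, against 7.39 and 7.74 in siSox2 and 7.28 and 7.35 in siNonTarget (1.36, SE 0.30, adjusted p = 0.0493). All were above both other groups, with replicate 1 the higher siPsmd14 array. Gclm, a subunit of the enzyme that starts glutathione synthesis, read 12.27 and 12.08 in siPsmd14, against 11.49 and 11.56 in siSox2 and 11.62 and 11.56 in siNonTarget (0.65, adjusted p = 0.031). Named from a separate list, of glutathione S-transferases, Gsto1 read 11.98 and 11.13 in siPsmd14, against 9.49 and 9.57 in siSox2 and 9.56 and 9.65 in siNonTarget (2.03, SE 0.27, adjusted p = 0.00601). Of 21 genes of that list 1 was higher and 1 lower (9.52%, against 4.03% of all genes), with a median of 0.12. Me1 and Gsto1 passed with any 1 array left out. Blvrb lost its call without siSox2 replicate 1 (0.0578) or replicate 2 (0.101). Gclm and Srxn1 lost theirs without siPsmd14 replicate 1 (0.154 and 0.141), siSox2 replicate 1 (0.127 and 0.193) or siSox2 replicate 2 (0.149 and 0.152), and Srxn1 measured 0.83 in the first of these fits and 1.89 without siPsmd14 replicate 2. Another transferase gene, Gstk1, was high in siSox2 (-1.11, adjusted p = 0.0186, and between 0.0555 and 0.1 without siPsmd14 replicate 2 or either siSox2 array).

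The promoters of called genes of the NRF2, proteasome and chaperone lists were searched on both strands for 3 elements, the antioxidant response element TGACNNNGC, the heat shock element GAANNTTC and the AP-1 element TGANTCA, which can overlap the first. The windows ran from 250 bases before to 50 after the start of the gene, from RefSeq in build GRCm38.p6. Of 6 genes 4 held a match, and their windows are shown because they carry the antioxidant element, 3 from genes of the NRF2 list and that of Psme4 from the proteasome lists. Each window is written 5′ to 3′ along the gene, with the matched letters in capitals. They are Me1 at chr9:86695865-86696164 on the minus strand, Gclm at chr3:122245307-122245606, Psme4 at chr11:30771525-30771824 and Srxn1 at chr2:152105274-152105573, all 3 on the plus strand.
Me1: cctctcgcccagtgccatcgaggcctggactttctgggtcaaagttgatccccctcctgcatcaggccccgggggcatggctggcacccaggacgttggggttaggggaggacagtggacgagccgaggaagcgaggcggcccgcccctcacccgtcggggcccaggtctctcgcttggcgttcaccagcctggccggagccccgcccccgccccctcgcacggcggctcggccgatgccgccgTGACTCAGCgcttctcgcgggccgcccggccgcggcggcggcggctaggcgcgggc
Gclm: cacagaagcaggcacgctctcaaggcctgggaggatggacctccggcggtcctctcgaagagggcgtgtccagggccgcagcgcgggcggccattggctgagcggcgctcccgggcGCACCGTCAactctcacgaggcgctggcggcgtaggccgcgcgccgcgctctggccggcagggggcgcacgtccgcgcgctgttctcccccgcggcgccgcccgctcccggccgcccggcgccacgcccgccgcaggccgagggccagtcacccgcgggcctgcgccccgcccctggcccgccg
Psme4: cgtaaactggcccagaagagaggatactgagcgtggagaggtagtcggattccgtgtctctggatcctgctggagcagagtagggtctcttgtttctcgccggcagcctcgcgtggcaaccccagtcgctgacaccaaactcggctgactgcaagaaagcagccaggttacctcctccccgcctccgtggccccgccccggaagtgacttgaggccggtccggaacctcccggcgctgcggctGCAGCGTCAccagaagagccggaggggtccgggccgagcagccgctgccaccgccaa
Srxn1: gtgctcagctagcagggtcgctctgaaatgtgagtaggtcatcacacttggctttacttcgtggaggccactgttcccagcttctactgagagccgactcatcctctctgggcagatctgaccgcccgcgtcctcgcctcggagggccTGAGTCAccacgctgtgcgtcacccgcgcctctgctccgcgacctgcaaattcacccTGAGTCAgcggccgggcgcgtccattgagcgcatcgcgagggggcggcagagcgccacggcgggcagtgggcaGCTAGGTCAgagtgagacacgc

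In Me1 the antioxidant element TGACTCAGC begins 6 bases before the start and holds an AP-1 element within it. In Gclm (GCACCGTCA), Psme4 (GCAGCGTCA) and Srxn1 (GCTAGGTCA) it reads on the minus strand, and Srxn1 also holds 2 copies of TGAGTCA. The antioxidant element occurred in 12.39% of all 32851 promoter windows, in 10 of 31 windows of the NRF2 list and in 9 of 51 of the proteasome lists. It occurred in 15.61% of 378 windows of genes higher in siPsmd14 and in 13.39% of 381 windows of lower genes. The AP-1 element occurred in 7.81% of all windows, in 41 of the 378 windows of higher genes (10.85%) and in 13 of the 381 of lower genes (3.41%). The heat shock element occurred in 7.86% of all windows, in 12 of 32 of the chaperone list, in 4.76% of the higher and in 5.25% of the lower genes. A match is a description of the letters and not of a bound site.

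Of 38 targets of p53 4 were higher and none lower in siPsmd14 (10.5%, against 4.03% of all genes). Of the 38, 32 lay above 0 and the median was 0.31. Mdm2, the ligase that degrades p53, read 11.81 and 11.62 in siPsmd14, against 10.61 and 10.57 in siSox2 and 10.12 and 10.05 in siNonTarget (1.12, SE 0.15, adjusted p = 0.00621). The epoxide hydrolase gene Ephx1 read 8.03 and 7.48 in siPsmd14, against 6.56 and 6.34 in siSox2 and 6.98 and 7.53 in siNonTarget (1.31, adjusted p = 0.0424). Mdm2 was above siNonTarget in both knockdowns and higher in siPsmd14 than in siSox2, while Ephx1 in siPsmd14 overlapped with siNonTarget and was low in siSox2. Ak1, an adenylate kinase gene (1.06, adjusted p = 0.00749), lay on opposite sides of siNonTarget, and Ddit4l, an inhibitor of mTOR signalling (1.88, adjusted p = 0.0216), had moved in siPsmd14. Without siSox2 replicate 2 none of the 4 passed, with an adjusted p of 0.0567 for Mdm2, 0.0721 for Ak1, 0.0674 for Ddit4l and 0.242 for Ephx1. The count was 1 without siPsmd14 replicate 1, 5 without siPsmd14 replicate 2 and 2 without siSox2 replicate 1. Per array, the list's median relative to the siSox2 mean was 0.43 and 0.22.

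Heat shock genes (3.7%) and integrated stress and unfolded protein response genes (2.94%) passed at shares near the 4.03% of all genes. Autophagy and lysosome genes passed at 8.11%. Of 27 heat shock proteins and co-chaperones Dnajb5 alone passed, at 7.23 and 6.93 in siPsmd14, against 6.10 and 6.46 in siSox2 and 6.12 and 6.35 in siNonTarget (0.80, adjusted p = 0.0464), and it lost its call without siPsmd14 replicate 1 (0.224), siSox2 replicate 1 (0.201) or siSox2 replicate 2 (0.0878). The median of this list was 0.07. Of 34 genes of the integrated stress and unfolded protein responses Cebpb was the 1 call, on the lower side, with a median of 0.26 and a range of -1.05 to 1.45. Without siPsmd14 replicate 2, 4 genes of this list were higher and 2 lower. Of 37 autophagy and lysosome genes the autophagy receptor gene Tax1bp1 (0.73, adjusted p = 0.0165) and the lysosomal protease gene Ctsd (0.92, adjusted p = 0.0247) were higher, and Tfeb, the regulator of lysosomal genes, was lower (-0.74, adjusted p = 0.0397). None of the 3 passed without siPsmd14 replicate 1 (0.0925, 0.131 and 0.158), siSox2 replicate 1 (0.0598, 0.115 and 0.0772) or siSox2 replicate 2 (0.122, 0.0773 and 0.251), and Tfeb also did not without siPsmd14 replicate 2 (0.0846).

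Of 32 genes of cholesterol and fatty acid synthesis 5 were lower in siPsmd14 and none higher (15.6%, against 4.03% of all genes). Of the 32, 29 lay below 0 and the median was -0.54, with a range of -1.09 to 0.16, against a median of 0.016 over all genes. Relative to siNonTarget the median was -0.38 and -0.26 on the siPsmd14 arrays and 0.25 and 0.26 on the siSox2 arrays, so siNonTarget lay between the knockdowns. The desaturase gene Scd2 read 10.96 and 11.28 in siPsmd14, against 11.87 and 12.22 in siSox2 and 11.40 and 11.49 in siNonTarget (-0.93, SE 0.16, adjusted p = 0.022). Fads1, which makes polyunsaturated fatty acids, read 8.34 and 8.39 in siPsmd14, against 9.16 and 9.25 in siSox2 and 9.07 and 8.74 in siNonTarget (-0.84, adjusted p = 0.021). The mevalonate kinase gene Mvk read 7.10 and 7.30 in siPsmd14, against 8.01 and 7.96 in siSox2 and 7.83 and 7.54 in siNonTarget (-0.79, adjusted p = 0.0235). In these genes every siPsmd14 array lay below every siSox2 and siNonTarget array. The mevalonate pathway genes Hmgcs1 (-0.60, adjusted p = 0.037) and Mvd (-0.70, adjusted p = 0.0374) passed too. However, only 1 of the 5 Hmgcs1 probe sets passed, and the next brightest gave -0.45 (adjusted p = 0.185) and -0.37 (adjusted p = 0.269). The calls depended on single arrays, with 0 of 32 without siPsmd14 replicate 1, 1 without siSox2 replicate 1 and 0 without siSox2 replicate 2, while the median stayed between -0.51 and -0.53 in the fits with 1 array left out. With the mean over all probe sets of a gene in place of the brightest, 10 members were lower.

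**Figure D4:**
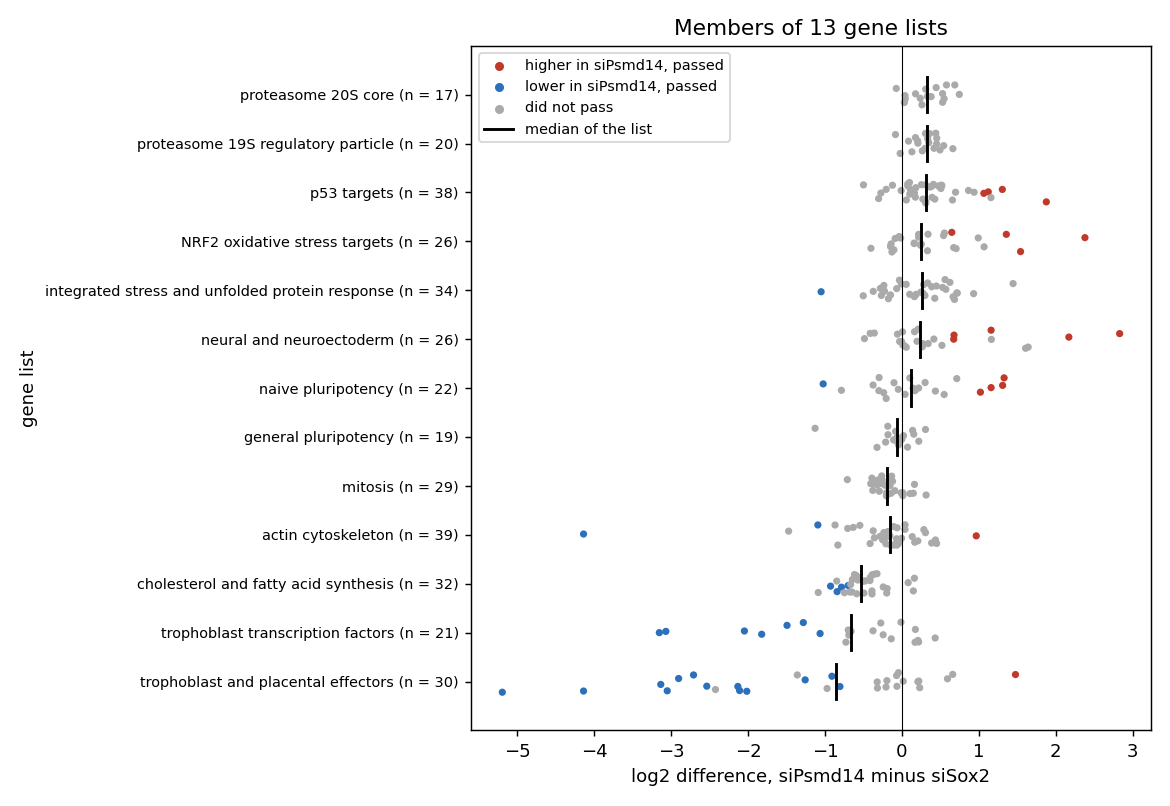
Log2 difference (horizontal, siPsmd14 minus siSox2) of each measured member of 13 gene lists, with members past the threshold in red where higher and in blue where lower, other members in grey and a bar at each list's median. The core, regulatory particle and p53 lists sit to the right of 0 with medians of 0.31 to 0.33, the cholesterol and fatty acid list to the left at -0.54, and the trophoblast lists spread down to -5.20.

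Of genes of glycolysis and hypoxia 11.1% passed, of amino acid transporters 8.33% and of iron handling 11.1%, against 4.03% of all genes. The hexokinase gene Hk1 read 8.53 and 8.89 in siPsmd14, against 9.62 and 9.76 in siSox2 and 8.83 and 8.59 in siNonTarget (-0.98, adjusted p = 0.0154). With the phosphofructokinase gene Pfkm (-0.81, adjusted p = 0.0395) and the hypoxia-induced Ndrg1 (-1.21, adjusted p = 0.0499, with 1 of its 5 probe sets passing), 3 of 27 were lower. Without siPsmd14 replicate 1 or siSox2 replicate 2 none of them passed, with an adjusted p of 0.0873 and 0.119 for Hk1. The cationic amino acid transporter gene Slc7a3 was low in siSox2, with 10.42 and 10.56 in siPsmd14, against 9.37 and 8.63 in siSox2 and 11.19 and 11.31 in siNonTarget (1.49, adjusted p = 0.0251). Slc38a4, an imprinted placental amino acid transporter gene, was high there (-0.81, adjusted p = 0.0133). The iron exporter gene Slc40a1 (-1.13, adjusted p = 0.0331) and the metal importer gene Slc39a14 (0.98, adjusted p = 0.0347) differed in opposite directions. Without siSox2 replicate 2 the adjusted p of these 4 was 0.16, 0.103, 0.222 and 0.178, and without siPsmd14 replicate 1 it was 0.11, 0.0821, 0.179 and 0.152.

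Signalling lists passed at 8% (FGF), 3.45% (BMP, Nodal and TGF-beta), 10.3% (Wnt) and 15% (LIF, JAK and STAT3), against 4.03% of all genes. Fgfr2, the FGF receptor that trophoblast stem cells depend on, read 7.91 and 8.12 in siPsmd14, against 9.28 and 9.26 in siSox2 and 8.53 and 8.13 in siNonTarget (-1.26, SE 0.16, adjusted p = 0.00515), and it passed with any 1 array left out. With Etv4 it made 1 higher and 1 lower of 25 genes of FGF signalling. Of 29 genes of BMP, Nodal and TGF-beta signalling the receptor gene Tgfbr1 was the 1 call (0.55, adjusted p = 0.0458), and it passed in none of the fits with 1 array left out (0.0637 to 0.217). Of 29 Wnt genes 1 was higher (Ccnd1) and 2 lower, Dkk1 and the ligand gene Wnt7b. Wnt7b was lower (-0.91, adjusted p = 0.0478) and likewise passed in none of them (0.0995 to 0.214). Of 20 genes of LIF, JAK and STAT3 signalling 2 were higher, Gbx2 and Pim1, and Tfcp2l1 was lower. Pim1, a kinase gene downstream of STAT3, read 10.24 and 10.20 in siPsmd14, against 9.46 and 9.45 in siSox2 and 9.72 and 9.67 in siNonTarget (0.76, adjusted p = 0.0127). Its groups did not overlap, and the call was lost without siPsmd14 replicate 1 (0.0701), siSox2 replicate 1 (0.0522) or siSox2 replicate 2 (0.0925).

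Of 39 actin cytoskeleton genes 1 was higher and 2 lower (7.69%, against 4.03% of all genes), with a median of -0.15. Lcp1, counted here, was also counted among the trophoblast and placental effectors. The plastin paralogues differed in opposite directions, since Lcp1 was high in siSox2 while Pls3, the plastin of solid tissues, was high in siPsmd14. Pls3 read 9.12 and 9.13 in siPsmd14, against 8.18 and 8.14 in siSox2 and 8.16 and 8.31 in siNonTarget (0.97, adjusted p = 0.00857, and 0.0516 without siPsmd14 replicate 1 or 0.0722 without siSox2 replicate 2). Csrp1, a LIM protein gene of actin bundles, was above siNonTarget in both knockdowns and lower in siPsmd14 (-1.09, adjusted p = 0.0321), a call that held only without siSox2 replicate 1 (0.0298) among the fits with 1 array left out. Of 25 fibroblast genes 3 were higher and 1 lower (16%). Thy1, a surface glycoprotein, read 5.72 and 5.95 in siPsmd14, against 4.73 and 4.67 in siSox2 and 5.69 and 5.84 in siNonTarget (1.13, adjusted p = 0.00436). The siSox2 arrays were below those of both other groups. The gelatinase gene Mmp2 (1.0, adjusted p = 0.0167) lay on opposite sides of siNonTarget, and the galectin gene Lgals1 (-1.35, adjusted p = 0.0247) was above it in both knockdowns. Their adjusted p without siSox2 replicate 2 was 0.0892 and 0.173. The homeobox genes Lhx1 of the mesendoderm (0.90, adjusted p = 0.0241) and Meis2 (0.71, adjusted p = 0.0453) were higher. Over the 4 fits with 1 array left out Lhx1 lay between 0.76 and 1.05 and Meis2 between 0.54 and 0.89. The Lhx1 call held only without siPsmd14 replicate 2 among these fits, and the Meis2 call in none. Only 1 of the 4 Meis2 probe sets passed, and Lhx1 was dim, at a mean of 4.73 in siPsmd14 and 3.82 in siSox2. Of 22 mesoderm genes 1 was higher and 1 lower (9.09%), of 18 primed pluripotency genes 2 higher and 1 lower (16.7%), and of 28 Hox and Iroquois genes 2 higher and 1 lower (10.7%).

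Some lists gave no call. None of 35 genes of DNA replication, 29 of mitosis and 42 of DNA methylation and chromatin complexes passed, against 4.03% of all genes. The replication factor gene Cdc45 (-0.54, adjusted p = 0.0806) and the polymerase gene Pola1 (0.34, adjusted p = 0.185) had the smallest p of their list. In mitosis 22 of 29 genes lay below 0, with a median of -0.20, and the securin gene Pttg1 (-0.71, adjusted p = 0.0675) and Cdk1 (-0.41, adjusted p = 0.157) had the smallest p. Smarcd3, a subunit of BAF chromatin remodelling complexes (0.46, adjusted p = 0.101), led the chromatin list.

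**Figure D5:**
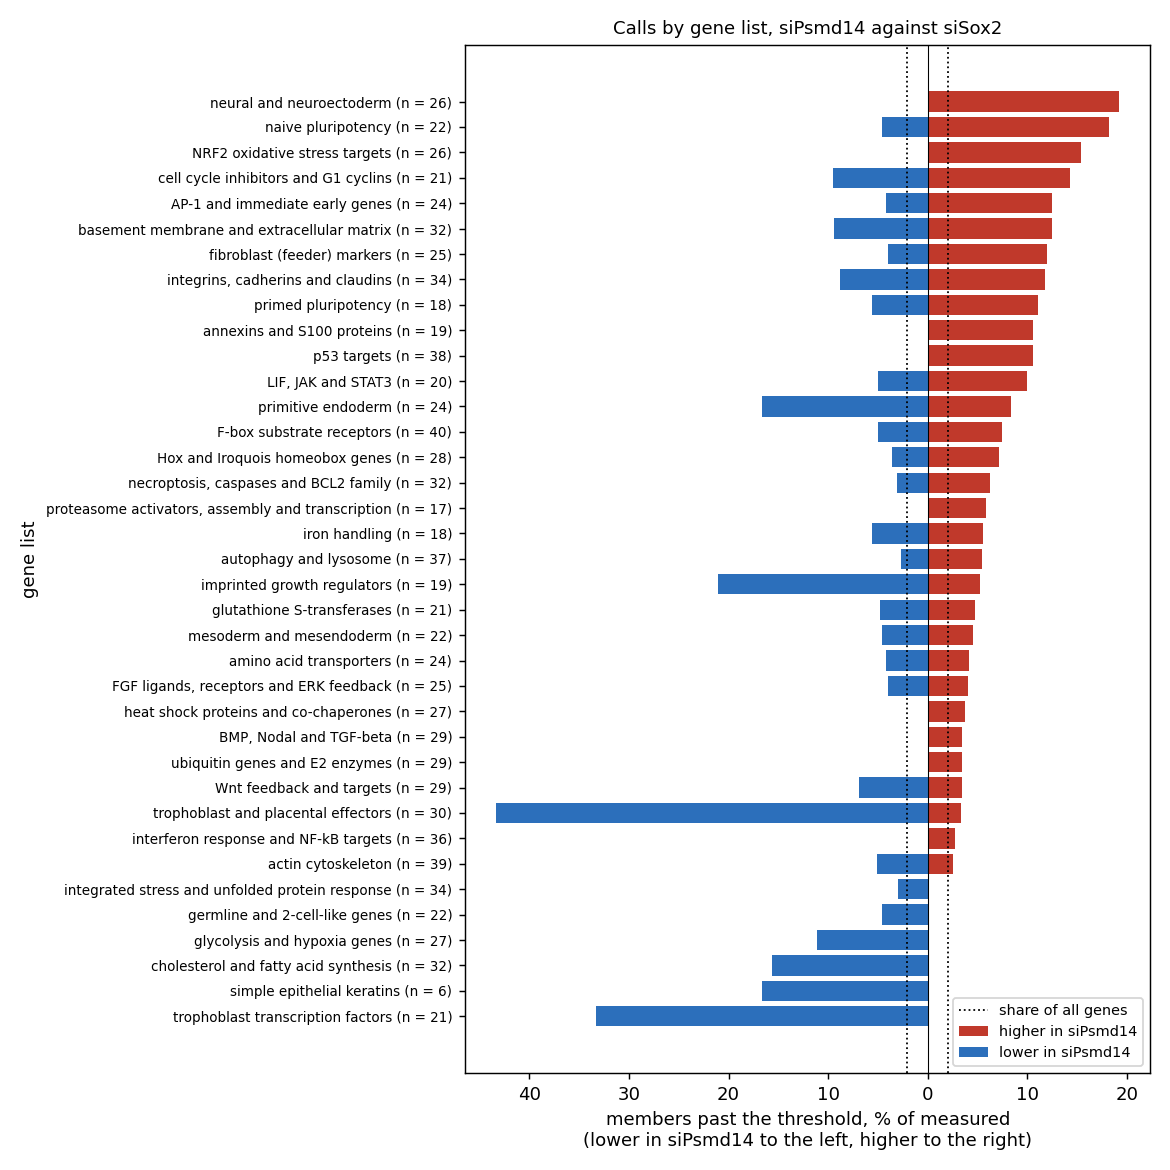
Share of measured members past the threshold in each gene list with at least 1 call (horizontal, lower in siPsmd14 to the left in blue and higher to the right in red, n = measured members), with dotted lines at the shares of all genes, 2.05% lower and 1.98% higher. The trophoblast lists reach furthest to the left, and the neural and naive pluripotency lists furthest to the right.

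Some genes had moved in both knockdowns by similar amounts. Relative to siNonTarget 77 genes were higher in both and 15 lower in both, against 1.89% of genes called either way in siPsmd14 and 4.28% in siSox2. The comparisons share the siNonTarget arrays, so part of this overlap is common to them by design. For 49 of the 77 and 13 of the 15 the direct difference was under 0.5. Krt8, a keratin of simple epithelia, read 12.51 and 12.40 in siPsmd14, against 12.36 and 13.47 in siSox2 and 9.92 and 9.74 in siNonTarget. The knockdowns overlapped, and the direct difference was -0.46 with a 95% interval of -1.11 to 0.19, which does not show equal levels. Without siSox2 replicate 1 Krt8 was lower in siPsmd14 (-1.01, adjusted p = 0.0245). Gsn, an actin-severing protein gene, read 9.66 and 9.17 in siPsmd14, against 8.64 and 9.31 in siSox2 and 6.80 and 6.37 in siNonTarget (0.44, interval -0.14 to 1.01). Tinagl1, a matrix gene of the uterus and placenta (-0.32, interval -1.16 to 0.51), the small heat shock protein gene Cryab (0.09, interval -0.85 to 1.03) and the mitochondrial carrier gene Slc25a24 (-0.08, interval -0.81 to 0.65) also had wide intervals. Tinagl1 passed without siSox2 replicate 1 (-1.04, adjusted p = 0.0461). On the lower side, Tcf15, a transcription factor of cells leaving the naive state, read 9.09 and 9.45 in siPsmd14, against 9.04 and 8.94 in siSox2 and 10.04 and 10.27 in siNonTarget (0.28, interval -0.09 to 0.65). The growth factor gene Bmp4 read 8.98 and 9.40 in siPsmd14, against 9.08 and 8.86 in siSox2 and 10.34 and 9.99 in siNonTarget (0.22, interval -0.19 to 0.63). Both lay below siNonTarget on all 4 arrays. Tsix (0.11, interval -0.37 to 0.58), Mobp (0.39, interval 0.04 to 0.74) and Itpka (0.33, interval -0.05 to 0.70) completed the named genes of this kind.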

How the data were processed

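The values were those of the series matrix of 8 Affymetrix arrays, in 4 groups of 2 by title. Labelled cDNA was amplified from 5 ng of total RNA, per the labels' protocols. Per the submitters' processing notes the deposited intensity values came from RMA, whose version and settings no source used here gives. They were on a linear scale, so log2 was taken here. RMA in its usual form sets all arrays to 1 distribution, so a difference is measured against most other probe sets. No scanner files were used. Of 45101 probe sets the 64 controls were left out. GEO's platform annotation gave 34945 of the other 45037 a single symbol, 932 several and 9160 none.

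All 8 arrays entered 1 model in limma 3.58.1 (R 4.3.3, lmFit and eBayes), with siPsmd14 minus siSox2 as the contrast. P-values were adjusted by Benjamini-Hochberg over 45037 probe sets with a threshold of 0.05, and every adjusted p in the text is from this model or the same model with an array left out. Each gene was read by the brightest of its probe sets (mean log2 over the arrays). No protein or detection data were used. The scripts were tested on simulated data. Members and the 45 gene lists were chosen with earlier results of these data known, and so are a description. The genes named were the 3 siRNA targets, Nanog and Pou5f1, together with the 15 largest called differences each way, up to 5 called members of a list by p (2 where none passed) and up to 5 genes each way that had moved alike in both knockdowns. The 15 each way also had to have arrays that did not overlap between the knockdowns, a condition that all 734 called genes met.

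Replicate numbers did not pair the arrays (the replicate differences of siPsmd14 and siSox2 correlated at 0.0843, and at -0.217 to 0.242 over the 6 pairs of groups), so they were not a block. The alternatives were other scalings, filters, samples, variance models and thresholds, and leaving out each array. A fit without 1 array leaves its group with a lone array, which is assumed to vary like the other groups, so passing such a fit is no test of that group's own spread.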

Additional observations from a re-analysis of the deposited data

How the results depend on the processing

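The counts of 1255 probe sets, 361 higher and 373 lower genes depended on the threshold and on which arrays entered the fit. With the 4 arrays alone they were 455, 145 and 132, at an adjusted p of 0.01 331, 104 and 99, and with a 2-fold minimum 681, 212 and 204. Over the fits with 1 of the 8 arrays left out they lay between 325 and 1543, 103 and 468, and 102 and 375. Leaving out either siNonTarget array gave 745, 222 and 231, and either siDdb1 array 1117, 350 and 307, although neither enters the difference itself. Filters on dim signal, subtracting array medians, quantile scaling, a trended robust eBayes and testing 1 probe set per gene kept all counts within 1.5 times. With the replicate block, which the correlations do not support as a pairing, they were 1294, 370 and 379. Using 25% of the distance to assign sides gave 98 and 108 genes on opposite sides, in place of 58 and 71.

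Of 112 called genes named, 47 passed in all 4 fits without a siPsmd14 or siSox2 array and 12 in none, and none of the 112 changed sign in any alternative run. Of the 31 named genes that had not passed, 7 changed sign over those fits. The difference lay between -0.275 and 0.172 for Nanog, -0.46 and 0.644 for Cryab, -0.578 and 0.415 for Slc25a24, -0.222 and 0.44 for Tsix, -0.124 and 0.023 for Ddb1, -1.01 and 0.092 for Krt8, and -1.04 and 0.392 for Tinagl1. It was above 0 without siPsmd14 replicate 1 (0.172) and siSox2 replicate 1 (0.066) in Nanog, which were the fits with Cryab below 0 (-0.324 and -0.46). It was above 0 without siPsmd14 replicate 2 (0.153) and siSox2 replicate 2 (0.415) in Slc25a24, which were the fits with Tsix below 0 (-0.222 and -0.051), and without siSox2 replicate 2 in Ddb1, Krt8 and Tinagl1. The cause was not tested. Background and detection could not be checked without scanner files, so low values such as those of Pparg, Lcp1 or Nxf7 may lie near background.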
